A study of Drosophila melanogaster with 6 samples.

Results

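The RNA of control female antennae of Drosophila melanogaster was described across all genes. The 3 libraries titled Control, replicates 1 to 3, were taken, of 6 libraries in all. The other 3 are titled E93RNAi and come from antennae in which RNA interference was aimed at Eip93F (E93), which encodes an ecdysone-induced transcription factor. Each library was made from 350 females, so a library is a pool of animals and not a single fly, and flies of both groups were 2 to 5 days old and kept at 25 °C with 12 h of light and 12 h of dark. Per the labels' protocols, both genotypes carried 1 copy each of peb-Gal4 and UAS-Dcr2. The driver peb-Gal4 is known to be active in olfactory sensory neurons, so cells outside its reach are not targeted, and UAS-Dcr2 adds Dicer-2, an enzyme that strengthens RNA interference. The control is therefore a driver and Dcr-2 transgenic animal, not a wild type. The protocol text names UAS-E93KK108140 for the control and VIE-260B for E93RNAi, the reverse of what the titles, sample descriptions and the yes or no entry for RNA interference say, and the titles were followed.

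The antenna is the main olfactory organ of the fly. Its sensory hairs, the sensilla, house olfactory neurons whose dendrites lie in a fluid made by support cells, which secrete odorant-binding proteins (Obp) and odorant-degrading enzymes into it. Odorant receptors (Or) work with the co-receptor Orco, and most ionotropic receptors (Ir) work with Ir8a, Ir25a or Ir76b. A few gustatory receptors (Gr) are also known in the antenna, among them the carbon dioxide receptor pair Gr21a and Gr63a.

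Poly(A) RNA was sequenced, and reads were counted per gene. The 3 Control libraries held 16639918, 17658380 and 18400979 gene counts, and the 3 E93RNAi libraries held between 17115956 and 18127735. In the Control libraries 86.4 to 86.9% of the listed reads were in genes, while 8.47 to 8.80% were set aside for aligning to several places. Levels are CPM, each gene's count scaled to a library total of 1000000 gene counts, and at this depth 3 counts in 1 library, taken as the floor, equal 0.163 to 0.180 CPM. The targeted gene Eip93F stood at 348, 340.3 and 324 CPM in the E93RNAi libraries, against 365, 396 and 374 CPM in the Control libraries. The groups did not overlap. The log2 change was -0.19 with a standard error (SE) of 0.048 (edgeR quasi-likelihood test, Benjamini-Hochberg adjusted p = 0.0119). Reads that the RNA interference transgene may add to Eip93F were not separated, so this change does not measure the size of the knockdown. The 113 Y-linked genes held 4, 0 and 2 counts in Control replicates 1, 2 and 3, and the male dosage compensation RNA roX2 averaged 0.0200 CPM, under the floor. Its partner roX1 had 24.3, 31.0 and 25.9 CPM in Control replicates 1, 2 and 3, and lies across the gene ec on the other strand. The other 5 genes of the male list were each below 1 CPM.

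The 4 marker genes of the antenna were high in every Control library. Obp83a, also called OS-F, a binding protein of trichoid support cells, had 10371, 10805 and 10711 CPM. Lush, the binding protein needed for the response to the pheromone cis-vaccenyl acetate, had 2013, 1887 and 1913 CPM. Orco had 3234, 3265 and 3347 CPM, and Ir25a had 406, 417 and 426 CPM. For each of the 4 genes the highest replicate exceeded the lowest by less than 10%, and Obp83a, lush and Orco were among the 50 most abundant genes of the library.

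Expression was spread over many genes. In the Control antennae 8531 of 17698 listed genes reached 1 CPM in each of the 3 libraries, 6588 reached 10 CPM, 2103 reached 100 CPM, 120 reached 1000 CPM and 3 reached 10000 CPM. The most abundant gene took 1.74% ± 0.0766 of the gene counts, the 20 most abundant took 13.3% ± 0.214 and the 100 most abundant took 26.9% ± 0.272 (SD, n = 3). It took 495 genes to hold 50% of the counts and 3343 genes to hold 90%. Protein-coding genes held 98.2% of the counts and noncoding RNA genes 0.923%, after selection for poly(A) RNA.

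By mean CPM the leading gene was Obp19d, an odorant-binding protein (FlyBase FBgn0011280, BDGP6 chromosome X, 20419613 to 20420979, plus strand). Its level was 17269, 16701 and 18216 CPM in Control replicates 1, 2 and 3, above every other gene in all 3. The mitochondrial subunit of cytochrome c oxidase mt:CoI followed with 11779, 10925 and 10966 CPM, and Obp83a came next. After them stood Jhedup, an esterase known from the antenna, with 8271 ± 104 CPM, and Msr-110 with 7585 ± 311 CPM (SD, n = 3). The next places were held by mt:CoIII (6656 ± 343 CPM), mt:Cyt-b (6391 ± 260 CPM), a10, a small secreted protein of the chemosensory protein family (6307 ± 386 CPM), Os-C, an olfactory-specific secreted protein (6278 ± 274 CPM), and CG9497 (6278 ± 8.24 CPM). From mt:CoIII to CG9497 the replicate range of each gene overlapped that of the gene after it, although mt:CoIII was above mt:Cyt-b in every library. CG9497 was clear of lncRNA:CR42862, the gene ranked after it.

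The noncoding gene lncRNA:CR42862 was in place 11 with 5926, 5781 and 5531 CPM. It lies on the same strand as CG33229, whose exons it overlaps, and how reads of the shared stretch were treated is not given in the sources used here. Ranks 12 to 20 held Cyp6w1, a cytochrome P450 (5536 ± 207 CPM), Acsx2, of the acyl-CoA synthetase family (4986 ± 158 CPM), Obp83b, also called OS-E (4828 ± 255 CPM), Dcr-2 (4755 ± 265 CPM), Jhbp3 (4508 ± 39.4 CPM), OS9 (4426 ± 116 CPM), CG6409 (4039 ± 202 CPM), Antdh, the antennal short-chain dehydrogenase (3884 ± 77.9 CPM), and Obp19a (3547 ± 51.8 CPM). Orco came next, in place 21. Of the 20 leading genes, 10 had a lowest replicate above the highest replicate of the gene ranked next, and for the other 10 the ranges overlapped. By class the 20 held 4 odorant-binding proteins, 3 genes of the mitochondrial genome, 1 cytochrome P450, 1 noncoding RNA and no receptor.

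**Figure D1:**
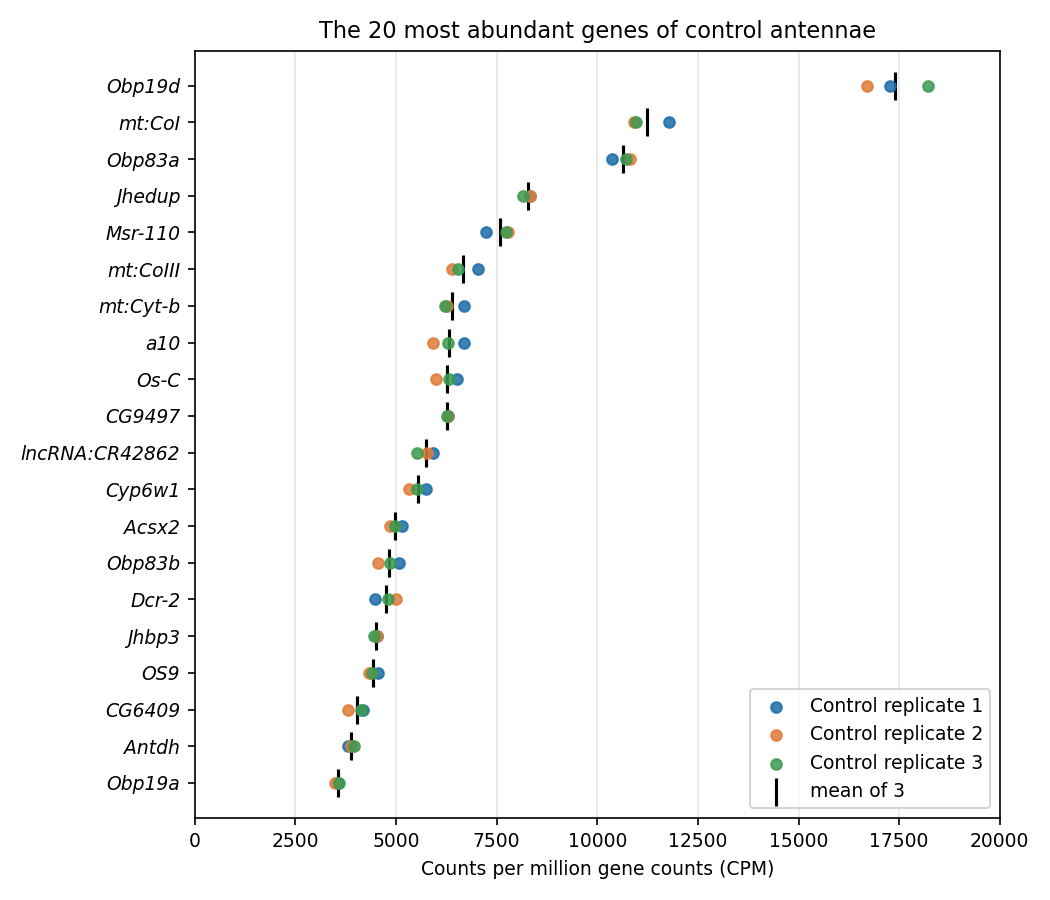
The 20 genes with the highest mean CPM in Control antennae, in order down the page. Each dot is 1 Control replicate, the black tick is the mean of 3, and the x axis is CPM starting at 0. Obp19d stands apart between 16701 and 18216 CPM, and from mt:CoIII to CG9497 the dots of neighbouring genes overlap.

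Longer transcripts collect more reads, so genes were also ranked by CPM per kb of exon. On this scale Obp19d again led with 15800 ± 695 CPM per kb. A10 (11123 ± 681), Obp83a (10780.1 ± 232), Os-C (10394 ± 454) and Obp83b (9144 ± 484 CPM per kb) followed, all of them short genes for small secreted proteins. The next 5 were mt:CoIII (8436 ± 435), mt:CoI (7307 ± 314), mt:Cyt-b (5621 ± 229), OS9 (5617 ± 147) and Obp19a (5516 ± 80.6 CPM per kb). Of the 20 leading genes by CPM, 15 were also among the 20 leading genes per kb, and of the leading 50 by CPM, 34 were among the leading 50 per kb. Cyp6w1 had 2314 CPM per kb and Dcr-2 had 837 CPM per kb.

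The odorant-binding protein genes together took 4.81%, 4.64% and 4.87% of the counts in Control replicates 1, 2 and 3, the largest share of the 13 gene classes examined. The share was concentrated in few members. Of 52 listed Obp genes, 25 reached 1 CPM in all 3 libraries and 26 averaged below 1 CPM, and Obp19d alone held 36.5% of the class and the top 3 held 68.9%. Behind Obp19d, Obp83a, Obp83b and Obp19a, Obp28a stood at 3095, 2879 and 3022 CPM. Per kb, the family fell from 1299 ± 33.4 CPM per kb for Obp59a, in place 10, to 371 ± 31.2 CPM per kb for Obp57c and 40.7 ± 4.23 CPM per kb for Obp57b. Obp57c thus lay between 10 more abundant binding proteins and a far lower remainder. The neighbours Obp83a and Obp83b lie within the same stretch of BDGP6 chromosome 3R (5972155 to 5975245 and 5976177 to 5976817, both on the minus strand), and the ratio of their levels per kb was 1.18 ± 0.0866 over the 3 Control libraries.

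Receptor genes were far less abundant. The 60 listed Or genes together took 0.544%, 0.540% and 0.555% of the counts, and 39 of them reached 1 CPM in every Control library while 20 averaged below it. Orco alone held 60.1% of the class. On the per-length scale Orco reached 1691 ± 30.2 CPM per kb, and the other 59 Or genes summed to 1661 ± 32.9 CPM per kb. The ratio of Orco to that sum was 0.991, 1.04 and 1.03 in Control replicates 1, 2 and 3, so the co-receptor's level per length nearly equalled that of all tuning receptors combined. All olfactory neurons that use an Or are known to carry Orco, whereas each tuning receptor is known from few neurons.

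Among the tuning receptors, the highest levels were those of Or59b, of large basiconic sensilla and known to respond to methyl acetate, with 335, 343 and 354 CPM, and Or92a, known from neurons that sense the food odour diacetyl, with 283, 249.9 and 252 CPM. Per kb they stood at 229.6 ± 6.32 and 212 ± 15.0 CPM per kb, and their replicate ranges overlapped. The pair stood clear of Or22b (89.1 ± 2.77 CPM per kb) and Or9a (84.8 ± 1.18 CPM per kb), whose ranges overlapped each other. Or22b has a near copy, Or22a, listed at 49.1 ± 2.39 CPM per kb, and reads that match both equally cannot be divided between them. Below Or9a, Or43b, Or85b, Or47b, Or47a and Or56a lay between 57.8 and 66.8 CPM per kb, each overlapping the next. Or47b is known as a receptor for fly-derived fatty acid esters and Or56a as the receptor for the mould odour geosmin.

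Receptors known from other organs or stages were low. Of 13 larval receptor genes, 12 averaged below 1 CPM, and the highest, Or1a, had 2.09 ± 0.0658 CPM. Of 7 receptor genes of the maxillary palp, the second olfactory organ of the head, Or46a had 28.1, 25.6 and 26.2 CPM and Or33c had 4.09, 3.17 and 3.70 CPM. Or46a is overlapped by CG12917 on its own strand and by asRNA:CR43467 on the other. The other 5 palp receptors, Or42a, Or59c, Or71a, Or85d and Or85e, summed to 80, 31 and 12 counts in Control replicates 1, 2 and 3, which is 4.81, 1.76 and 0.652 CPM. For these 5 genes the first library thus held several times the counts of replicate 3. The whole list of 7 summed to 37.0, 30.5 and 30.5 CPM in Control replicates 1, 2 and 3. Both lists were added after the data had been seen.

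The 66 listed Ir genes took 0.178%, 0.181% and 0.183% of the counts. Only 19 reached 1 CPM in every Control library, and 47 averaged below 1 CPM. Per kb the order of the leading genes was Ir76b (142 ± 1.81), Ir25a (116 ± 2.77), Ir75a (95.8 ± 3.18), Ir8a (88.3 ± 3.99) and Ir64a (48.9 ± 0.302 CPM per kb), and each was clear of the next beyond the range of the replicates. Among these 5, Ir76b, Ir25a and Ir8a, are co-receptors, Ir75a is known as a receptor for acetic acid and Ir64a as an acid sensor of the sacculus, a pit in the antenna. By CPM, which favours the longer Ir25a transcript, Ir25a came first with 417 ± 9.95 CPM, then Ir76b with 327 ± 4.17 CPM and Ir8a with 248 ± 11.2 CPM. The 3 co-receptors summed to 346 ± 8.36 CPM per kb and the other 63 Ir genes to 371 ± 3.63 CPM per kb, a ratio of 0.933 ± 0.0288. Orco per kb was 14.6 ± 0.130 times Ir25a.

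Gustatory receptor genes had few or no counts apart from 3. Of 60 listed Gr genes, 10 reached 1 CPM in every Control library and 50 averaged below it, and together they took 0.0368% ± 0.00121 of the counts. Gr63a had 158, 142 and 153 CPM, Gr64f, a sugar receptor subunit, had 92.1, 84.7 and 88.0 CPM, and Gr21a had 80.8, 84.1 and 85.6 CPM. These 3 held 87.6% of the class. The carbon dioxide receptor needs both Gr21a and Gr63a, yet per kb Gr63a stood 2.73 ± 0.202 times as high as Gr21a. Gr28b, known for warmth sensing, had 13.1 ± 0.490 CPM and Gr64a, a sugar receptor, 11.6 ± 0.451 CPM. Gr64b and Gr64c share exons on the same strand, as do Gr64d and Gr64e, and Gr10a overlaps Or10a. These Gr genes were listed at 0, which cannot be read as silence because reads ambiguous between genes are not counted.

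**Figure D2:**
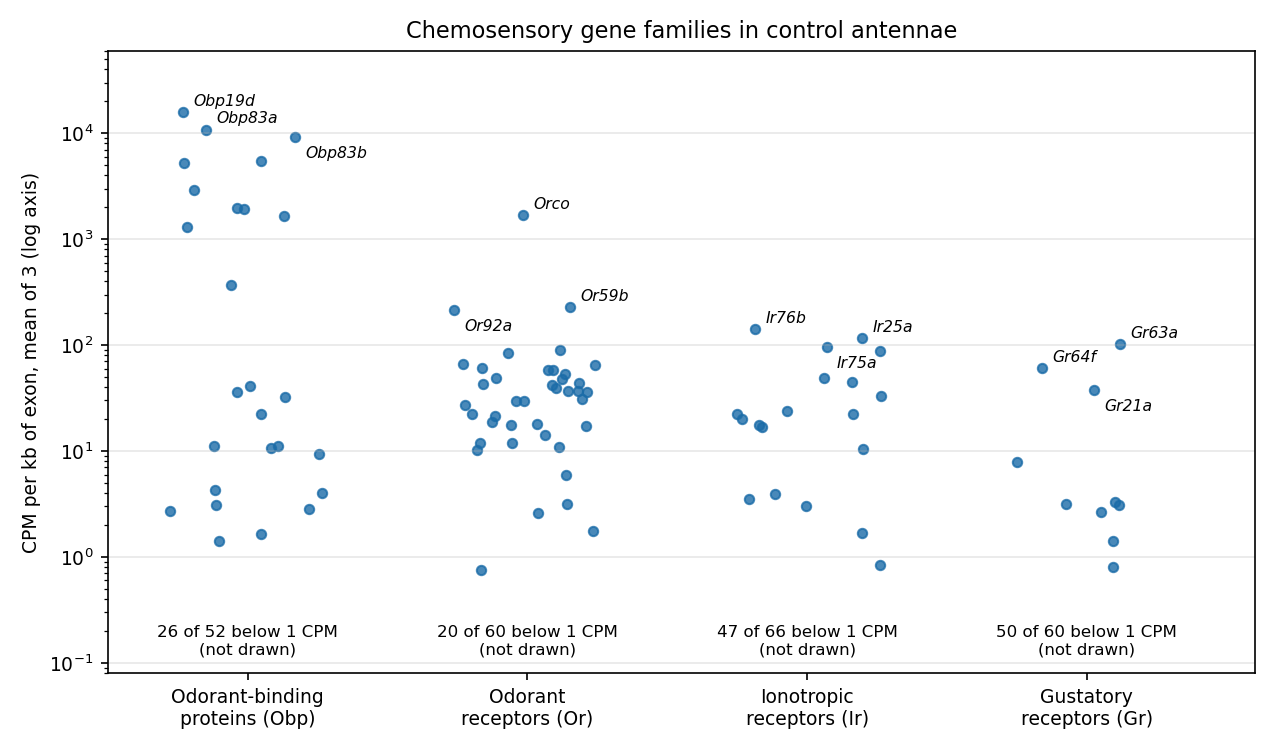
Mean CPM per kb of exon in Control antennae on a log axis, 1 dot per gene, for the 4 chemosensory families. Genes averaging below 1 CPM are counted at the foot and not drawn, and horizontal placement within a family carries no meaning. The Obp dots reach 15800 CPM per kb, Orco stands alone among the Or genes at 1691, and the leading Ir and Gr genes reach 142 and 103 CPM per kb.

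Enzymes that can clear odorants or xenobiotics formed another abundant group. The 86 genes listed by a Cyp symbol are mostly cytochrome P450 genes, but Cyp1 (703 ± 12.6 CPM) among them is a cyclophilin gene. Together these 86 genes took 1.84% ± 0.0602 of the counts and 62 of them reached 1 CPM in every Control library. Cyp6w1 led them, followed by Cyp6g1, known for insecticide resistance, with 2175, 2124 and 2270.2 CPM, and Cyp6a8 with 1775 ± 152 CPM. GstE4 led the 35 glutathione S-transferase genes with 3196, 2853 and 2935 CPM, ahead of GstD1 (1016 ± 22.7 CPM) and GstE12 (519 ± 18.7 CPM). Ugt35B1, an antennal UDP-glycosyltransferase, had 3258, 2994 and 3096 CPM and held 59.7% of the counts of its 35-gene class, whose next members were Ugt49C1 (401 ± 28.01 CPM) and Ugt302C1 (381 ± 13.5 CPM). Each of these 3 classes was thus led by 1 gene. Est-6, an esterase related to Jhedup, ranked 34 with 2172 ± 149 CPM.

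Genes of the mitochondrial genome took 2.88% ± 0.128 of the counts, from 10 of 38 listed genes at or above 1 CPM. The nuclear subunits of the respiratory chain and ATP synthase added 1.48% ± 0.0173 from 87 genes, led by ATPsynbeta (1982 ± 97.9 CPM), ATPsynC (1445 ± 18.1 CPM) and SdhA (915 ± 23.5 CPM). Ribosomal protein genes took 3.29% ± 0.102 over 85 genes, and 80 of them reached 1 CPM. Their top 3, RpL5 (1185 ± 90.7 CPM), RpS3A (1045 ± 90.7 CPM) and RpL7A (979.9 ± 21.7 CPM), held 9.77% of the class, so this class was even where the Obp class was steep. In contrast, 61 of 70 cuticle protein genes of the Cpr family averaged below 1 CPM, and Cpr73D (78.7 ± 4.98 CPM), Cpr49Ae (31.1 ± 1.70 CPM) and Cpr67B (21.8 ± 8.68 CPM) led the remainder. Of 29 pickpocket sodium channel genes, 20 averaged below 1 CPM, and ppk5 (50.4 ± 0.940 CPM), ppk25, known from pheromone-sensing neurons (30.3 ± 2.03 CPM), and ppk14 (4.79 ± 0.464 CPM) were the highest. Among 2380 long noncoding and antisense RNA genes, 174 reached 1 CPM in every Control library, and after lncRNA:CR42862 the highest were lncRNA:noe (799.99 ± 53.3 CPM) and lncRNA:CR34335 (267 ± 35.8 CPM).

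Markers of the cell types of the antenna were present in the Control libraries to different degrees. All 10 neuronal genes were above 100 CPM, from the synaptic protein genes cpx (1172 ± 28.4 CPM) and nSyb (788 ± 6.07 CPM) and the sodium channel gene para (1082 ± 99.3 CPM) to the acetylcholine synthesis gene ChAT (134 ± 2.91 CPM). Of 7 glial genes, Gs2, a glutamine synthetase also made outside glia, had 2723 ± 54.5 CPM, and the glial transcription factor gene repo had 31.8, 34.6 and 37.6 CPM. Alrm, a marker of astrocyte-like glia of the brain, was below the floor of 3 counts in every Control library. Among support cell genes the ammonium transporter gene Amt had 1019, 1032 and 1020.2 CPM, and its relative Rh50 had 47.9 ± 1.78 CPM. Snmp1, a CD36-family gene needed for pheromone sensing, ranked 42 with 1889.9 ± 108 CPM, and Snmp2 had 59.1 ± 8.98 CPM. In bulk antennae a lower level from fewer cells and one from less RNA per cell cannot be told apart.

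Genes of Johnston's organ, the hearing organ in the second antennal segment, divided. The cilium and sheath genes btv (413 ± 25.8 CPM), eys (139 ± 3.01 CPM) and nompB (100.1 ± 3.33 CPM) were well counted, and these also serve other ciliated neurons. The 3 mechanotransduction channel genes nompC, iav and nan had 7.80 ± 0.779, 1.84 ± 1.07 and 0.359 ± 0.222 CPM, and nan in Control replicate 2 was below the floor. Of 7 temperature and humidity genes, Ir40a (98.0 ± 3.997 CPM) and Ir21a (59.4 ± 1.52 CPM) led, their partner Ir93a had 9.72 ± 0.276 CPM, Ir68a averaged 0.823 CPM and brv1 was listed at 0 in all 3 libraries, which allows up to 0.163 to 0.180 CPM in a library.

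**Figure D3:**
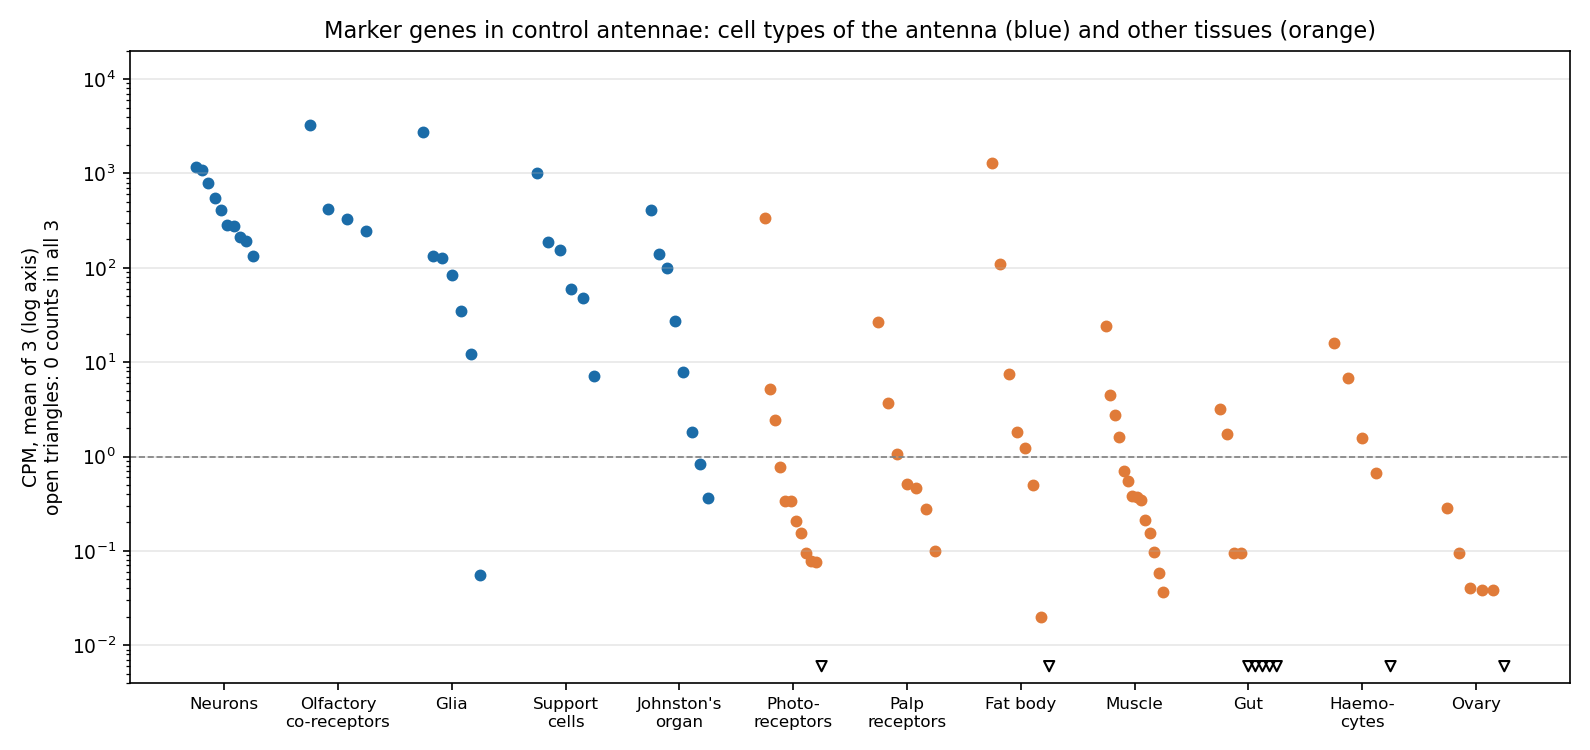
Mean CPM over the 3 Control libraries on a log axis for marker lists, with cell types of the antenna in blue and other tissues in orange. Each dot is a gene, open triangles are genes with 0 counts in all 3, and the dashed line is 1 CPM. Neuronal genes all lie above 100 CPM, while most photoreceptor, muscle, gut and ovary genes lie below 1 CPM.

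Markers of other tissues were mostly near the floor. Of 12 photoreceptor genes, 9 averaged below 1 CPM, ninaE, the main rhodopsin gene, averaged 0.154 CPM and Rh3 was at 0. The exception was norpA, a phospholipase C gene also active outside the eye, with 343, 346 and 318 CPM. Of 14 muscle genes, 10 averaged below 1 CPM, and the list summed to 34.3, 38.1 and 35.4 CPM, of which sls gave 24.1 ± 3.49 CPM. Of 9 gut genes, 5 had no count in any Control library, and the list summed to 4.99, 4.30 and 6.09 CPM. The 6 ovary genes summed to between 0.396 and 0.601 CPM. Among 8 fat body genes, FASN1, a fatty acid synthase gene also active in other tissues, had 1294 ± 19.5 CPM and apolpp had 109 ± 4.94 CPM, but Lsp2 was at 0. The yolk protein gene Yp1 had 5, 1 and 93 counts in Control replicates 1, 2 and 3, Yp2 had 91, 124 and 182 counts and Yp3 had 2, 1 and 24 counts, all highest in replicate 3.

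Some genes are carried or touched by the transgenes of the control genotype, and their reads from transgene and native gene were not separated. Dcr-2, which UAS-Dcr2 also supplies, had 4473, 4999 and 4792 CPM and ranked 15, so its rank cannot be read as that of the native gene. It overlaps Rab4 on the other strand. The eye colour gene w, whose mini-gene is the usual marker of fly transgenes, ranked 109 with 1061, 1097 and 1100.4 CPM. Peb itself had 201 ± 15.4 CPM, tio, a gene known to be affected in some insertion lines of this hairpin collection, had 14.3 ± 0.130 CPM, and the body colour gene y averaged 0.0955 CPM.

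Replicates of the Control antennae were close. Over the 7436 genes whose mean reached 100 counts, the coefficient of variation (CV) of CPM between the 3 libraries had a median of 4.56%, with 10th and 90th percentiles of 1.61% and 10.4%. Counting alone gives a median expected CV of 3.55% for these genes, from the inverse square root of the mean count. A CV from 3 values falls below its expected size more often than above it, so this comparison understates the spread beyond counting. The share beyond counting rose with level. Genes with 100 to 300 counts had a median CV of 7.71%, against 7.23% from counting, whereas genes above 10000 counts had 3.19%, against 0.763% from counting. The biological CV estimated by edgeR was 5.22% in the E93RNAi libraries and 4.48% in the Control libraries. Pearson correlations of log2 CPM between Control libraries were 0.996 to 0.998 across genes, which are not independent replicates.

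Few genes varied widely. Of the 7436 genes, 61 (0.820%) had a CV over 20%, and replicate 1 was the one farthest from the others for 31 of them, replicate 2 for 20 and replicate 3 for 10. The largest CV was that of CG10185 with 50.8, 6.29 and 19.5 CPM (845, 111 and 359 counts, CV 89.5%). Next came the gene listed as FBgn0037726 with 24.8, 4.70 and 10.3 CPM, CG13428 with 5.59, 3.001 and 12.9 CPM, CG16926 with 12.6, 4.70 and 4.24 CPM, and Tps1, a trehalose-6-phosphate synthase gene, with 29.5, 15.3 and 15.1 CPM. In 4 of these 5 genes replicate 1 was the highest, and in CG13428 it was replicate 3. At the other end, krz, the beta-arrestin gene, had 106.3, 106.2 and 106.2 CPM, and mys, an integrin gene, 115.09, 115.02 and 114.94 CPM. Syx13, CG13014 and Aplip1 were equally even, with CVs under 0.1%, below what counting alone gives. These 5 genes were picked as the smallest CVs of 7436. In E93RNAi their CVs ran from 2.60% for mys to 11.4% for CG13014, so the evenness is not shown to be a trait of the genes. The median CV of members with at least 100 counts was 3.28% for 17 Ir, 4.43% for 36 Or and 5.30% for 18 Obp genes. It was 5.88% for 48 Cyp, 6.47% for 29 Gst and 11.4% for only 4 Cpr genes. CVs fall with level, in which the classes differ, so these medians do not rank the classes.

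**Figure D4:**
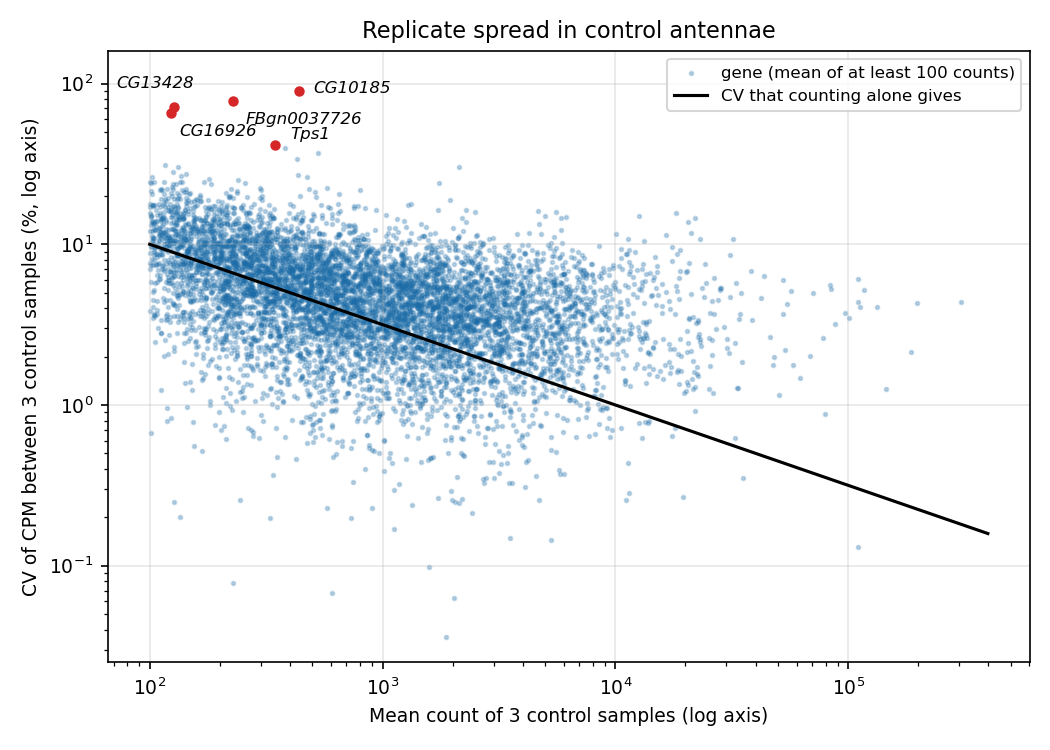
CV of CPM between the 3 Control libraries against the mean count, both on log axes, for the 7436 genes whose mean reached 100 counts. The black line is the CV that counting alone gives, and red dots mark the 5 genes with the largest CV. Most genes of few counts lie around the line, and genes above 10000 counts lie above it.

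Against this baseline the E93RNAi antennae differed in many genes. Of 9237 genes tested with edgeR's quasi-likelihood test, 2248 (24.3%) had a Benjamini-Hochberg adjusted p under 0.05 (13.8% of the tested genes higher in E93RNAi and 10.5% lower). Of the 50 most abundant Control genes, 33 passed, 10 higher and 23 lower, with a median absolute log2 change of 0.21 and a median SE of 0.049. Over all tested genes these medians were 0.11 and 0.070, the median absolute log2 change of the called genes was 0.37 and the largest was 11.52. Abundant genes thus had the smaller SE, and all 50 stayed within a change of 1 on the log2 scale. That limit depends on the cut, because among the 100 most abundant genes 3 passed with a change of at least 1. The lowest of the 100 was at -1.56. Fold changes use TMM-scaled libraries and levels use library totals.

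The largest change among the 50 was that of Obp28a, with 5894, 5605 and 6295 CPM in E93RNAi antennae, against 3095, 2879 and 3022 CPM in Control antennae (log2 change 0.96, SE 0.052, adjusted p = 5.87e-08 by edgeR). The lowest was Cyp6a8, with 1161, 964 and 1097 CPM in E93RNAi, against 1937, 1636 and 1752 CPM in Control (log2 change -0.75, SE 0.076, adjusted p = 1.24e-05 by edgeR). The groups did not overlap for either gene. Of the 20 leading genes 3 were higher in E93RNAi, namely Obp83a, Msr-110 and CG6409, and 8 were lower, namely mt:CoI, mt:CoIII, mt:Cyt-b, CG9497, Cyp6w1, Acsx2, Jhbp3 and Antdh. CG6409 (log2 change 0.17, adjusted p = 0.0237 by edgeR) no longer passed without E93RNAi replicate 1 or 3 or Control replicate 2 or 3 (adjusted p between 0.0527 and 0.127). Obp19d, Jhedup, a10, Obp83b and Obp19a did not pass (log2 changes -0.11, -0.14, -0.14, 0.14 and -0.14), and did with the replicate number as a block (adjusted p = 0.0388, 0.0442, 0.0135, 0.0163 and 0.0205 by edgeR). Dcr-2 had 4748, 4938 and 4463 CPM in E93RNAi, against 4473, 4999 and 4792 CPM in Control (log2 change -0.04, SE 0.055, adjusted p = 0.687 by edgeR), and these ranges overlapped.

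By class, all 10 tested genes of the mitochondrial genome were lower in E93RNAi, against 10.5% of all tested genes. Their median log2 change was -0.41, and 9 or 10 were lower under each alternative scaling, tool or left-out library. Of 67 tested respiratory chain genes 22 (32.8%) were lower in edgeR, against 10.5% of all tested genes. None was higher at the adjusted threshold or at an unadjusted p under 0.05 in edgeR, while DESeq2 called 22 lower and 1 higher. The 22 became 12 without Control replicate 1, 13 without Control replicate 3, 10 without E93RNAi replicate 2 and 33 with the replicate block. None of 80 ribosomal protein genes passed in edgeR, where 5 were lower at an unadjusted p under 0.05, and DESeq2 called 2 lower, limma voom none, and edgeR with the replicate block 13 lower. Without E93RNAi replicate 1 edgeR called 10 of them lower, without Control replicate 2 it called 4 lower, and without Control replicate 3 it called 1 higher and none lower. The Obp share of the counts was 5.21% ± 0.203 in E93RNAi and 4.77% ± 0.115 in Control, the Or share 0.486% ± 0.00502 in E93RNAi and 0.546% ± 0.00798 in Control, and the Ir share 0.233% ± 0.00106 in E93RNAi and 0.181% ± 0.00217 in Control (SD, n = 3 each). The groups did not overlap in 8 of the 13 class shares, these 3 among them. The share of all genes whose groups do not overlap was not computed, so this count of classes stands without a background. With 3 libraries a group the exact two-sided permutation test cannot go below p = 0.1. After adjustment over the 13 classes that is 0.163. The ratio of Orco to the sum of the other Or genes was 0.9998 to 1.06 in E93RNAi and 0.991 to 1.04 in Control, while the ratio of the Ir co-receptors to the other Ir genes was 0.553 to 0.574 in E93RNAi and 0.8997 to 0.952 in Control.

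Marker lists of other tissues and states were also compared by their summed level, likewise without a background share of non-overlap. Several were higher in E93RNAi with no overlap. The 14 muscle genes had 44.5 to 76.2 CPM in E93RNAi against 34.3 to 38.1 CPM in Control. The 9 gut genes had 9.72 to 12.7 CPM in E93RNAi against 4.30 to 6.09 CPM in Control. The 11 inducible heat-shock genes had 228 to 283 CPM in E93RNAi against 27.6 to 35.8 CPM in Control. The 13 larval receptors had 4.47 to 4.79 CPM in E93RNAi against 2.28 to 3.005 CPM in Control. In Control the larval receptor sum is mostly Or1a. All 9 tested heat-shock genes, 5 of 7 tested muscle genes, both tested gut genes and the 1 tested larval receptor passed as higher in edgeR. Of all tested genes 13.8% did. The remaining genes of these lists had too few counts to be tested. The 5 haemocyte genes summed to 30.5 to 40.2 CPM in E93RNAi, against 22.9 to 26.6 CPM in Control, but only Pxn of 4 tested genes passed, with 13.8, 25.9 and 17.5 CPM in E93RNAi against 8.11, 5.15 and 7.01 CPM in Control. Lower in E93RNAi with no overlap were the summed levels of the 8 fat body genes, at 1159 to 1309.6 CPM in E93RNAi against 1400.5 to 1429 CPM in Control, of the 12 photoreceptor genes, at 294 to 316 CPM in E93RNAi against 327 to 356 CPM in Control, of the 7 palp receptors, at 26.9 to 29.7 CPM in E93RNAi against 30.5 to 37.0 CPM in Control, and of the 6 brain peptide genes, at 0.351 to 0.396 CPM in E93RNAi against 1.502 to 1.85 CPM in Control. In Control the fat body, photoreceptor, palp receptor and brain peptide sums are mostly FASN1, norpA, Or46a and Dh44, so they do not describe their lists. Of 5 tested photoreceptor genes, 3 passed as higher and 1 as lower in edgeR. Of 5 tested palp receptors 1 passed as higher and 1 as lower, as did 1 and 1 of 6 tested fat body genes. The 1 tested brain peptide gene passed as lower. The summed level of the 8 genes of Johnston's organ overlapped between groups, with 682 to 756 CPM in E93RNAi against 678 to 711 CPM in Control. In Control that sum is mostly btv. Its channel genes nompC, iav and nan summed to 48.3 to 58.4 CPM in E93RNAi against 8.78 to 10.9 CPM in Control, with no overlap. Of 7 tested genes of the Johnston's organ list, 2 passed as higher and none as lower. Among the 2 was nompC, with 52.4, 57.1 and 46.1 CPM in E93RNAi against 7.39, 7.31 and 8.70 CPM in Control. The w gene had 6241, 5982 and 5911 CPM in E93RNAi, against 1061, 1097 and 1100.4 CPM in Control. The part of these lists in the changes of the abundant genes was not tested.

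**Figure D5:**
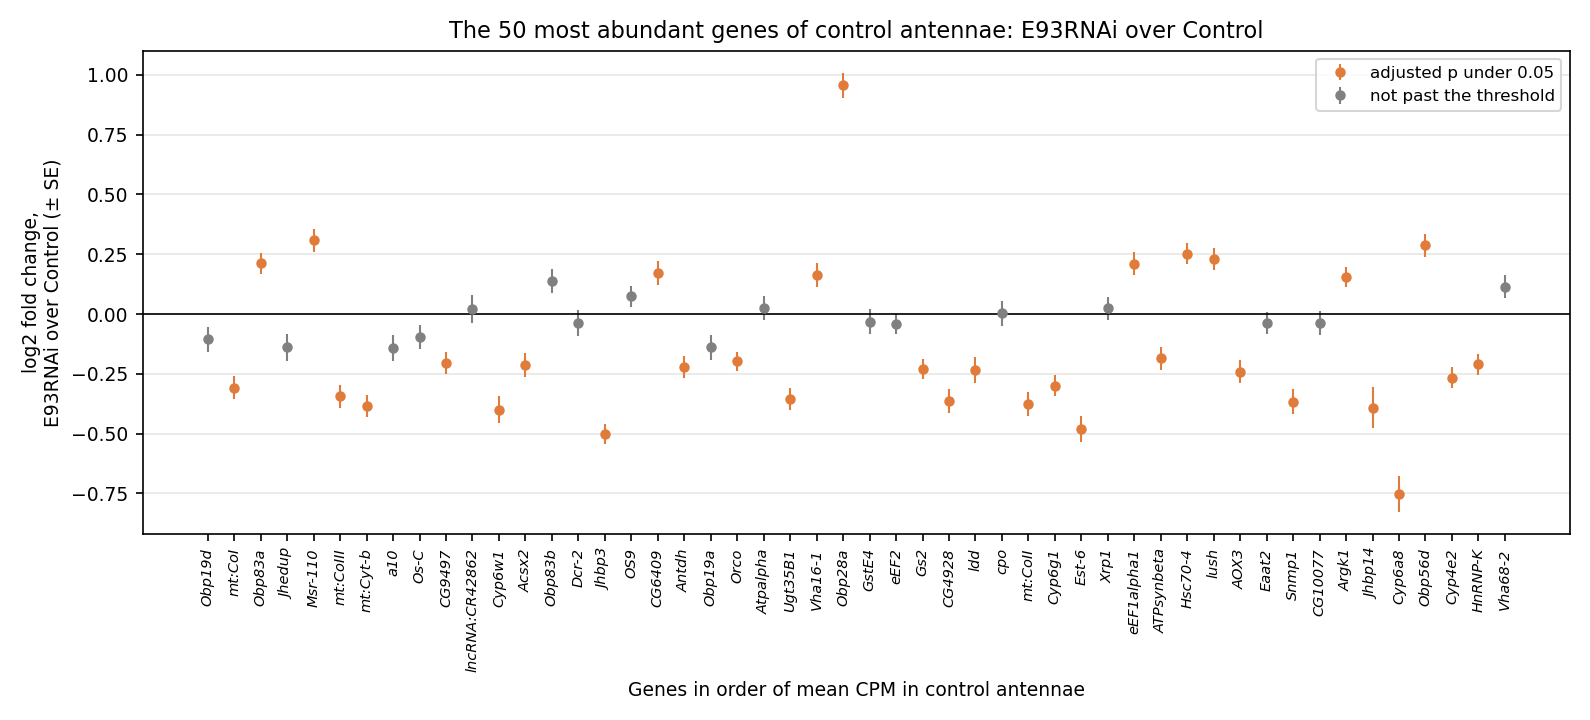
Log2 fold change of E93RNAi over Control for the 50 most abundant Control genes, in order of mean CPM from left to right, with bars of 1 SE. Orange dots passed an adjusted p of 0.05 in edgeR's quasi-likelihood test and grey dots did not. Obp28a at 0.96 and Cyp6a8 at -0.75 are the extremes, and 33 of the 50 dots are orange.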

How the data were processed

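Each library's deposited counts are whole, unnormalized reads over 17698 FlyBase identifiers. The 5 summary lines at their end were left out of library sizes and tests. The tools named are cutadapt 1.8, STAR 2.5.3a and HTSeq 0.9.1, with the BDGP6 genome build, per the submitters' processing notes, which were given here without settings. The annotation release and the strand setting are not given in the sources used here. The library kit keeps strand, per the labels' protocols. Symbols, coordinates, overlaps and exon lengths came from Ensembl release 115 (BDGP6.54), which holds 17560 of the identifiers. The other 138 held 0.815% of the Control counts and have no level per kb.

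CPM is the count over the total gene count of the library. CPM per kb divides it by the union of a gene's exons. Genes sharing reads with a near-identical copy lose reads that align to several places. Ambiguous reads, 1.93 to 1.96% of the listed Control reads, are in no gene's count, so genes overlapping another can read too low. Depth was 16639918 to 18400979 counts per library. The floor of 3 counts and counting CVs cover counting error only. The labels call the samples biological replicates.

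E93RNAi was compared with Control in 3 against 3 libraries, with group as the only term, in edgeR 4.0.16 under R 4.3.3 (limma 3.58.1), after filterByExpr and TMM scaling. In simulated counts, where 9238 genes were tested, the same step recovered 96 of 98 genes changed by 1 on the log2 scale. It recovered 102 of 102 changed by 2, and the run gave 10 false calls. The 200 changed genes had only these sizes, while the called genes of the real data had a median absolute log2 change of 0.37. The run therefore cannot tell how many changes below 1 were missed. Class shares were compared with an exact permutation test. Same-numbered libraries of both groups deviated together weakly (correlations of 0.148, 0.138 and 0.148 over 7645 genes). The labels' protocols describe pairs reared under the same conditions, so the numbers may pair the samples. The main fit has no term for such pairing. The fit with the replicate block is printed where it changes a call.

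Genes named are the 4 antennal markers, the 20 highest by CPM, the 10 highest per kb, the 5 highest of each of Or, Ir, Gr and Obp and the 3 highest of each other class, the co-receptors, Dcr-2, w, peb, Eip93F, tio, the 5 largest and 5 smallest CVs, and members of the marker lists. Genes outside this rule were picked with their values in view. The members and lists were chosen with earlier results of these data known. Alternatives were other scalings, filters and detection limits, levels per kb, DESeq2 1.42.0, limma voom, the replicate block and leaving out each library. Python 3.11.15 with pandas 2.3.3 and numpy 2.4.6 was used.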

Additional observations from a re-analysis of the deposited data

How the results depend on the processing

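Per kb of exon, in place of per gene, the 20 most abundant genes took 25.7% of the signal, and the class shares became 0.678% for Or, 0.145% for Ir, 0.0458% for Gr, 11.5% for Obp, 1.94% for Cyp, 1.59% for Gst, 0.587% for Ugt, 0.0139% for ppk, 7.03% for ribosomal proteins, 5.47% for the mitochondrial genome, 2.54% for the respiratory chain and 0.0209% for Cpr genes. By construction this scale raises classes of short transcripts. With no filter on low counts the median CV was 8.14%. It was 3.07 to 4.39% without each Control replicate in turn, and the detection count was 8559 to 8588. The 20 leading genes were the same 20 under other scalings and without any 1 Control library, and 15 of them remained per kb. Of 175 levels of named genes under alternatives other than per kb, 162 moved by less than 1 SD.

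The count of changed genes was 1711 to 2155 when 1 library was left out, 1881 with DESeq2, 2211 with limma voom and 2430 with the replicate block, against 2248. Among the 50 leading genes it was 30 to 34 without 1 library and 39 with the block. Of 300 log2 changes of 25 named genes none reversed, 4 no longer passed and 17 newly passed. The 4 were all CG6409, without E93RNAi replicate 1 or 3 or Control replicate 2 or 3. The block changed no call among the 25 named genes beyond the 5 given above.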

Other observations

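Some abundant genes of Control antennae lie outside the lists described above. The examples given here were chosen after their values were seen and stand for no group. Atpalpha, the catalytic subunit of the sodium and potassium pump, ranked 22 with 3054, 3361 and 3318 CPM, and nrv3, of the family of its beta subunit, ranked 81 with 1277 ± 21.98 CPM. Of the vacuolar proton pump, Vha16-1 had 2991, 3123 and 3031 CPM, Vha68-2 had 1714 ± 38.6 CPM, Vha55 had 1509 ± 55.2 CPM and Vha26 had 1241 ± 20.04 CPM. Eaat2, an excitatory amino acid transporter gene, ranked 41 with 1929, 1879.96 and 1908 CPM. For Atpalpha, Vha16-1 and Eaat2 the spread between the 3 libraries was small beside the level.

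Also picked from the top of the ranking were some genes with Jhbp symbols. Jhbp3 had 4530.3, 4532 and 4463 CPM in Control replicates 1, 2 and 3, whereas Jhbp14 had 2040.1, 1665 and 1754 CPM and Jhbp13 averaged 944 ± 107 CPM. The takeout gene to, known to respond to feeding and the clock, had 1258 ± 183 CPM. Drsl5, of the drosomycin family of antimicrobial peptides, ranked 122 with 1037 ± 163 CPM. The clock gene tim had 4444, 3008 and 2900 counts in E93RNAi replicates 1, 2 and 3, against 2121, 1549 and 1550 counts in Control replicates 1, 2 and 3, so replicate 1 was the highest in both groups. Of the 100 most abundant genes, 13 carry only a CG number as symbol.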
